A study of Homo sapiens with 402 samples.

Results

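RNA was sequenced from MCF10A cells, an immortalised, non-tumorigenic line of human breast epithelium, after 48 h with arsenic at 0.025, 0.25 or 2.5 µM. These 12 libraries, 4 per dose, were set against the 15 water controls of the same plate, 3153-AT, out of 402 libraries and 21 chemicals in the study. They were selected by the treatment, dose, plate name and plate barcode in their labels, with no use of a measured value. Arsenic at 25 µM (4 libraries) and the 48 libraries of cadmium, copper, lead and mercury at the same 3 doses are described only for comparison. All 93 libraries of the plate entered the main fit, its gene filter and its estimate of the spread. Each well received 500 wild-type cells in a 384-well plate 24 h before dosing, the arsenic was in water, and the controls received water alone. The salt and valence of the arsenic are not given in the labels.

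The control libraries carried the numbers 1 to 8 and 10 to 16. Arsenic replicates 1 and 2 together with controls 1 to 8 are called the low-numbered set here, and replicates 3 and 4 with controls 10 to 16 the high-numbered set. The labels do not call these sets batches, but the libraries differed with them. Controls of the low-numbered set held 12.6 M to 23.9 M counts (M for mega), and those of the high-numbered set 1.93 M to 5.40 M. Arsenic libraries held 5.57 M to 18.5 M. Mitochondrially coded genes took 10.4% to 11.4% of the counts in the low-numbered controls and 7.87% to 9.09% in the others. A term for the set was part of the main fit, and the part of depth in the results was not tested beyond a fit on counts thinned to 1 depth. The 2 high-numbered libraries at 2.5 µM differed at least 2-fold from each other in 1389 of 9364 well-measured genes, against 83 to 158 genes for the other 5 dosed pairs. Pairs of low-numbered controls differed so in 22 to 124 genes, and pairs of high-numbered controls in 629 to 1642 (median 1189). That range holds the 2.5 µM pair, but those controls were shallower than the pair (5.57 M and 9.45 M counts). Replicate 3 at 2.5 µM had 9.45% mitochondrial counts, above the high-numbered controls, and replicate 4 had 7.15%, below them. The 50 most abundant genes took 26.8% and 22.4% of their counts, against 22.2% to 24.0% in those controls. The part of this in the results was not tested. Where leaving out 1 of the dosed libraries ended the call of a gene described at 2.5 µM, this is said beside it, except for the complement gene C3, for which it was not examined. The replicates are described as biological in the labels, which do not say whether they were separate cultures, so p-values measure the spread between wells.

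The libraries held markers of the labelled cell type. The summed level of 8 genes typical of MCF10A (keratins, CDH1, EPCAM and VIM among them) was 2511 to 3161 CPM (counts relative to the TMM-scaled library total) in the controls and 2167 to 2653 CPM at 2.5 µM. PGR had no counts in any library, ESR1 stayed at or under 1.65 CPM, and immune markers summed to at most 0.392 CPM. A list of fibroblast markers reached 146 CPM in the controls and 101 CPM at 2.5 µM, nearly all of it from the matrix gene DCN. In replicate 3 at 2.5 µM DCN read 5.26 CPM, below the high-numbered controls (20.5 to 58.2 CPM), and its part in the results was not tested. In whole wells, fewer cells of a kind and less RNA per cell cannot be told apart.

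Arsenic enters cells through aquaglyceroporins and sugar carriers, binds thiols such as those of glutathione, thioredoxin reductase and the sensor KEAP1, and is exported as glutathione conjugates by ABCC pumps. When KEAP1 thiols are modified, the transcription factor NRF2 accumulates and switches on genes of glutathione synthesis, thioredoxin, NADPH supply, quinone reduction and iron storage through antioxidant response elements in their promoters. Higher exposures also bring on the heat shock factor and ATF4 programmes of unfolded protein, and metallothioneins, small cysteine-rich metal binders.

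More genes passed the test against water at each higher dose. At an adjusted p under 0.05 (edgeR's quasi-likelihood test, Benjamini-Hochberg adjustment), 10 of 24295 genes (0.0412%) were called at 0.025 µM, 113 (0.465%) at 0.25 µM and 850 (3.5%) at 2.5 µM. The calls at 0.25 µM comprised 40 higher (0.165%) and 73 lower genes (0.3%), and those at 2.5 µM comprised 379 higher (1.56%) and 471 lower genes (1.94%). With no term for the set the 3 counts were 0, 17 and 477, and DESeq2 called 28, 166 and 1677. Differences were mostly small: none of the calls at 0.025 µM, 15 at 0.25 µM and 182 at 2.5 µM reached 2-fold. The median log2 fold change over all genes stayed close to 0, at -0.01, -0.02 and -0.03. The 3 doses share their controls, so a resemblance between them is not independent evidence, and each dose's own values are given side by side.

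NRF2 targets were the fixed list with the most calls at 2.5 µM. Like all lists here, it was chosen with earlier results of these data known. Of its 36 genes, 23 rose and none fell, with a median log2 fold change of 0.62 against -0.03 over all genes. In 17 of the 36, all 4 libraries lay above every control of their own set, where 121 of all 24295 genes (0.498%) did so. At 0.25 µM, 4 rose (NQO1, GCLM, TXNRD1 and FTL) and the list's median was 0.06. At 0.025 µM none passed the test and the median was -0.04.

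The antioxidant response element is known by the core letters TGACNNNGC, searched here on both strands of the 250 bases before each gene start in RefSeq (GRCh38.p14). It was found before 10.9% of 35116 starts and before 9 of 32 starts (28.1%) of the list. Of the 36 listed genes, 26 were matched to a start, and the core was held by 3 of the 16 matched genes that rose at 2.5 µM and by 5 of the 10 that did not (EPHX1, ME1, GPX2, FECH and CBR1). It was thus not more frequent among the genes that rose. The matches of the 3 genes that rose are shown, as the ones beside which a rise was measured. The core, on either strand, is in capitals, and each stretch is written along the strand of its gene.
GCLM (chr1:93909431-93909489, minus strand): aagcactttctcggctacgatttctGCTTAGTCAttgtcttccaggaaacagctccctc
TXNRD1, first start (chr12:104215655-104215713, plus strand): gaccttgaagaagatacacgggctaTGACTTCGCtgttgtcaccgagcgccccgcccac
TXNRD1, another start (chr12:104286905-104286963, plus strand): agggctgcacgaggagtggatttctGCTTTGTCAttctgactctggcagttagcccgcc
PGD (chr1:10398838-10398896, plus strand): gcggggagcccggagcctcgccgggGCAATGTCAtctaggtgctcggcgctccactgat
A match is a description of letters, and no match says only that the core is not in this window.

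Iron and haem genes of the list rose at 2.5 µM. HMOX1 (chromosome 22, 35381096 to 35394207), which encodes the enzyme that opens haem, had 17.1, 11.2, 39.2 and 35.1 CPM in replicates 1 to 4 at 2.5 µM. The low-numbered controls ranged from 1.84 to 4.73 CPM around a median of 3.48, and the high-numbered ones from 1.41 to 12.4 CPM around 5.08. All 4 dosed libraries were above every control of their own set, while replicate 2 was below the highest control of the other set. The log2 fold change was 2.64 ± 0.37 (SE, adjusted p = 4.3e-08). Values at 0.25 µM were 6.83, 3.97, 10.4 and 5.09 CPM, and at 0.025 µM 2.41 to 4.26 CPM, with adjusted p of 0.71 and 1.

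FTL, the light chain of the iron store ferritin (chromosome 19, 48965309 to 48966879), read 3441, 3704, 6011 and 3787 CPM at 2.5 µM. Controls lay between 1369 and 1733 CPM (median 1521) in the low-numbered and between 922 and 1221 CPM (median 1152) in the high-numbered set. Every dosed library was above all 15 controls, with a log2 fold change of 1.72 ± 0.08 (adjusted p = 1.2e-37). The heavy chain FTH1 rose by 0.92 ± 0.08 (adjusted p = 8.8e-18). A list of 9 tested ferritin pseudogenes was put together after values were seen. In 4 of them all 4 libraries at 2.5 µM lay above every control of their set, as in 0.498% of all genes. FTLP3, 1 of these 4, rose by 1.80 ± 0.18. The pseudogenes share sequence with FTL or FTH1, and the deposited counts do not show which copy the reads came from.

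The genes of glutathione supply rose next to them. SLC7A11, the cystine importer (chromosome 4, 138164097 to 138242349), stood at 78.8, 74.3, 118 and 214 CPM at 2.5 µM, above all controls, which spanned 13.3 to 25.4 CPM in the low-numbered and 26.1 to 61.9 CPM in the high-numbered set with medians of 21.9 and 37.9. Its log2 fold change was 2.03 ± 0.17 (adjusted p = 3.6e-18). GCLM, the modifier subunit of glutamate-cysteine ligase, gave 176, 164, 192 and 305 CPM against 58.5 to 123 CPM in the 15 controls (1.18 ± 0.10, adjusted p = 5.3e-18). The catalytic subunit GCLC rose by 0.69 ± 0.10. SRXN1, which repairs oxidised peroxiredoxins, did not pass (0.59 ± 0.25, adjusted p = 0.24).

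Aldo-keto reductases, NQO1 and the thioredoxin pair also rose at 2.5 µM. AKR1C1, which reduces steroids and reactive carbonyls (chromosome 10, 4963415 to 4983283), had 400, 413, 483 and 566 CPM against 157 to 259 CPM in the low-numbered and 85.4 to 117 CPM in the high-numbered controls (1.71 ± 0.14, adjusted p = 2.1e-19). AKR1C2 rose by 1.78 ± 0.11 and AKR1C3 by 1.15 ± 0.09. These paralogues are so alike that reads may have been split between them. NQO1, a quinone reductase, read 1195, 1171, 943 and 1631 CPM against 559 to 698 CPM in all controls (0.97 ± 0.07, adjusted p = 6.9e-24). TXN, thioredoxin itself, rose by 0.74 ± 0.07, and TXNRD1, its reductase, by 0.79 ± 0.10 (adjusted p = 3.1e-10).

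Among the remaining members, OSGIN1 rose by 1.34 ± 0.26, TRIM16L by 1.39 ± 0.11, the autophagy receptor SQSTM1 by 0.80 ± 0.08, and the pentose phosphate enzyme PGD by 0.55 ± 0.06. OSGIN1 lost its call without replicate 4 and within the low-numbered set (adjusted p = 0.28 there). TKT, ME1 and EPHX1 did not pass, at 0.02, 0.26 and 0.21. In the plot of 6 of these genes by library, the 2.5 µM points leave the range of the controls of their colour in each panel.

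**Figure D1:**
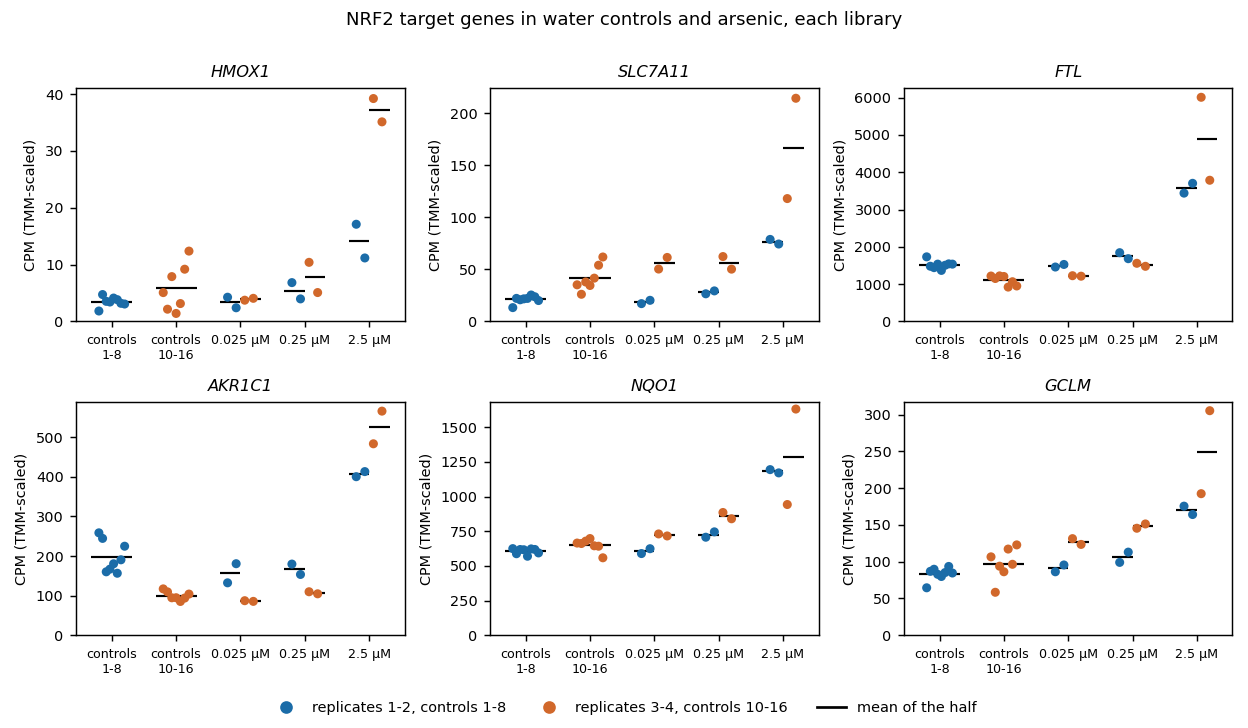
Level of 6 NRF2 targets (HMOX1, SLC7A11, FTL, AKR1C1, NQO1 and GCLM) in CPM in each control and arsenic library, with blue for replicates 1 and 2 and controls 1 to 8, orange for replicates 3 and 4 and controls 10 to 16, and a bar at the mean of each colour. At 2.5 µM all 4 points lie above every control of their colour in each gene, for example 3441 to 6011 CPM of FTL against 922 to 1733 CPM in the controls.

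The first genes of the list to pass the test were seen at 0.25 µM. NQO1 had 707, 746, 885 and 840 CPM there, above all 15 controls (0.33 ± 0.07, adjusted p = 0.0034). GCLM had 99.1, 113, 145 and 151 CPM, above every control of each set (0.46 ± 0.10, adjusted p = 0.01). TXNRD1 rose by 0.41 ± 0.10 (adjusted p = 0.018) and FTL by 0.32 ± 0.08 (adjusted p = 0.045). GCLM and TXNRD1 lost their calls without replicate 2 or replicate 4, and FTL without any 1 of the 4 replicates or any 1 of 7 of the controls. NQO1 kept its call without each library in turn and lost it with no term for the set.

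Selenoproteins, which carry selenocysteine in their active sites, did not follow TXNRD1. This group of 21 tested genes was put together after values were seen. The levels of GPX1 and SELENOW messages are known to depend on selenium supply, which was not measured here. At 2.5 µM 1 member rose (TXNRD1) and 5 fell (SELENOW, GPX1, SELENOT, SELENON and SELENOP), with a median of -0.13. The shares over all genes at this dose were 1.56% called higher and 1.94% called lower.

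SELENOW, a small thioredoxin-like selenoprotein (chromosome 19, 47778703 to 47784682), was among the 10 lowest fold changes that the naming rule picked. It read 38.9, 37.6, 56 and 29 CPM at 2.5 µM. The controls ranged from 122 to 163 CPM (median 144) in the low-numbered and from 76.4 to 160 CPM (median 131) in the high-numbered set, so no dosed library reached the lowest control. The log2 fold change was -1.81 ± 0.11 (adjusted p = 2.0e-26), with -1.91 in the low-numbered and -1.60 in the high-numbered set. At 0.25 µM the libraries read 101 to 124 CPM (-0.27 ± 0.09, adjusted p = 0.23), and at 0.025 µM 121 to 151 CPM (-0.02 ± 0.09, adjusted p = 1). Against arsenic at 0.025 µM, which shares no library with it, the 2.5 µM group was lower by 1.79 (log2 fold change -1.79 ± 0.13, adjusted p = 4.9e-22).

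GPX1, a glutathione peroxidase that removes hydrogen peroxide (chromosome 3, 49357176 to 49358353), read 188, 245, 246 and 149 CPM at 2.5 µM. Its controls spanned 416 to 539 CPM in the low-numbered and 263 to 367 CPM in the high-numbered set, with medians of 464 and 326. All 4 dosed libraries lay below all 15 controls (-0.97 ± 0.09, adjusted p = 4.5e-16). SELENOT fell by 0.40 on the log2 scale (adjusted p = 0.00099), a call lost without replicate 3. SELENON had -0.60 ± 0.17 (adjusted p = 0.026), a call lost without replicate 1, 2 or 4 or without control 4, and 0.05 in the high-numbered set. SELENOP, a secreted selenium carrier, read 3.65, 3.55, 1.02 and 1.90 CPM against 6.89 to 11.2 CPM in the low-numbered and 0 to 7.47 CPM in the high-numbered controls (-1.35 ± 0.34, adjusted p = 0.0073), so the groups were apart in the first set only, and it did not pass within the other (adjusted p = 0.30). The remaining 15 members did not pass, among them GPX4, which removes lipid peroxides (-0.13 ± 0.09, adjusted p = 0.60), and SELENOF (0.01 ± 0.07, adjusted p = 1).

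**Figure D2:**
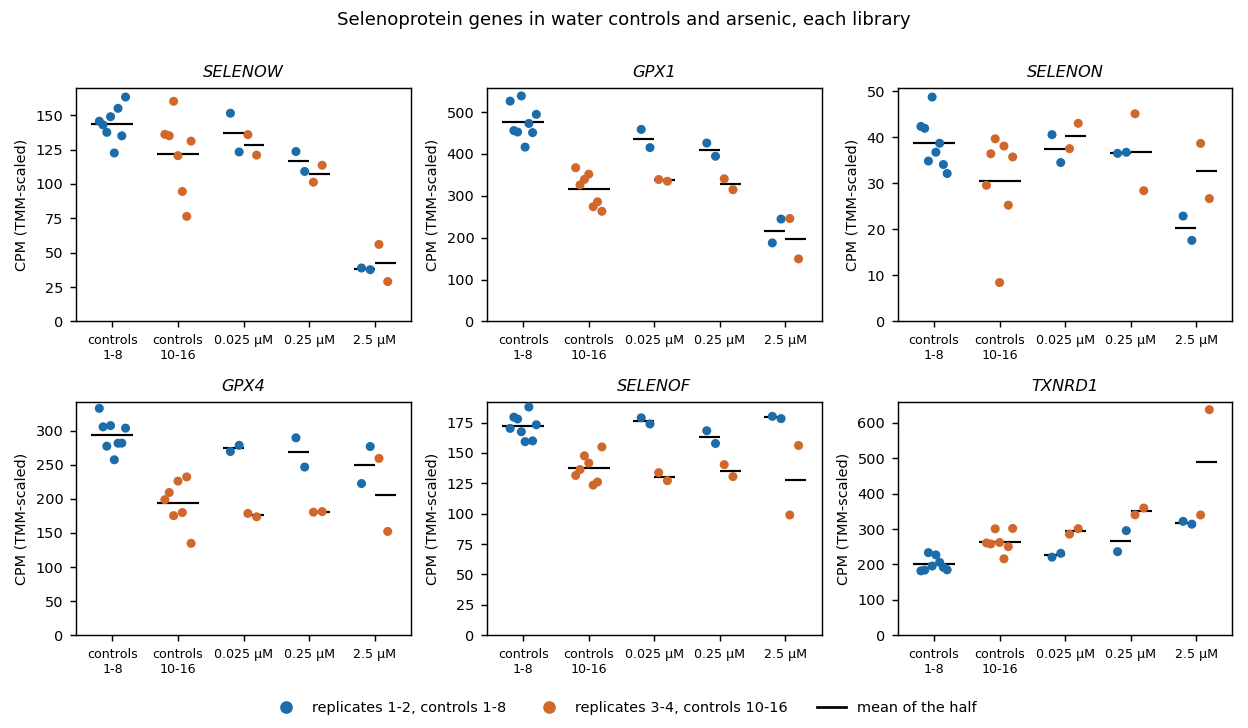
Level of 6 selenoprotein genes (SELENOW, GPX1, SELENON, GPX4, SELENOF and TXNRD1) in CPM in each control and arsenic library, with blue for replicates 1 and 2 and controls 1 to 8, orange for replicates 3 and 4 and controls 10 to 16, and a bar at the mean of each colour. SELENOW fell to 29 to 56 CPM at 2.5 µM from 76.4 to 163 CPM in the controls, while GPX4 and SELENOF overlapped their controls and TXNRD1 lay above them.

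SELENOW also differed between arsenic and the other metals at 2.5 µM. The 16 libraries of cadmium, copper, lead and mercury read 107 to 154 CPM around a median of 136, and the 4 arsenic libraries lay below all of them (-1.79 ± 0.11, adjusted p = 4.1e-26). GPX1 ranged from 324 to 493 CPM in those 16 libraries, again above all 4 arsenic libraries (-0.97 ± 0.09, adjusted p = 1.8e-15). SELENOT was lower as well (-0.43, adjusted p = 0.0016).

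Genes of arsenic handling changed in part, with 3 called higher and 1 lower at 2.5 µM, where the shares over all genes were 1.56% and 1.94%. Of 10 tested, ABCC2, an export pump for glutathione conjugates, rose at 2.5 µM by 0.86 ± 0.16, with 31.6, 43.9, 38.4 and 24.2 CPM against 6.89 to 26.4 CPM in the controls. ABCC3 rose by 0.39 ± 0.07 and GSTO1, a reductase of arsenic species, by 0.32 ± 0.07. ABCC2 was not called within the high-numbered set alone, and ABCC3 and GSTO1 were not called within the low-numbered set alone. GSTO1 also lost its call with no term for the set. ABCC1 did not pass (0.24 ± 0.13, adjusted p = 0.46). AS3MT, the arsenic methyltransferase, was too sparse to test: all its counts among the controls and the 3 doses were in 1 library at 0.025 µM.

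AQP3, an aquaglyceroporin (chromosome 9, 33441160 to 33447593), read 5.19, 9.72, 3.73 and 3.90 CPM at 2.5 µM. The low-numbered controls spanned 14.7 to 27.3 CPM and the high-numbered ones 0.458 to 27.8 CPM, so the groups were apart in the first set and overlapped in the other. Its log2 fold change was -1.55 ± 0.37 (adjusted p = 0.0043), a call lost without replicate 1.

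With both sets fitted together, metallothioneins and heat shock genes gave 4 calls at 2.5 µM, all higher and each under 2-fold. The share over all genes at this dose was 1.56% called higher. Of 7 metallothioneins tested, MT2A rose at 2.5 µM by 0.71 ± 0.09 (adjusted p = 2.0e-09) and MT1E by 0.67 ± 0.11 (adjusted p = 5.9e-06). Both were sensitive to the set: MT2A had 7833 to 10554 CPM in the low-numbered and 3028 to 4883 CPM in the high-numbered controls, its fold change was 0.40 in the low-numbered and 1.09 in the high-numbered set, and neither gene was called with no term for the set. MT1X and MT1F did not pass (0.17 and -0.39, adjusted p = 0.76 and 0.67). These genes are near copies, so reads may be shared among them.

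Of 19 heat shock genes, HSP90AA1 (0.53 ± 0.08, adjusted p = 9.8e-08) and HSPE1 (0.33 ± 0.09, adjusted p = 0.018) rose at 2.5 µM, the latter not without replicate 2 or 4. The sets differed: the low-numbered one had 2 higher (HSPA8 and HSP90AA1) and none lower, with a median of 0.13. The high-numbered one had 4 higher and 2 lower (HSPA8 and HSPD1), with a median of -0.05. The interaction was called for HSPB1, HSP90AA1, HSPA8 and HSPD1. HSPA1A, the inducible chaperone of the family, read 24.3, 21.8, 72.3 and 35 CPM against 11.6 to 48.8 CPM in the controls and did not pass (0.72 ± 0.23, adjusted p = 0.059). It passed in 10 of its 29 alternative fits, among them DESeq2 (adjusted p = 0.024), the replicate block (adjusted p = 0.019), the high-numbered set alone (1.02, adjusted p = 0.023) and the fits without replicate 1 or 2 (adjusted p = 0.041 and 0.028). DNAJB1 stayed at 0.05 ± 0.12. ATF3, an early gene of many stresses, summed to 20 counts over the 4 libraries at 2.5 µM and to 102 counts over the 15 controls. At 25 µM it had 13014 counts in 4 libraries, HMOX1 read 1580 to 1950 CPM, and HSPA1A had a log2 fold change of 4.65.

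Other stress programmes gave 0 to 3 calls each at 2.5 µM, where 3.5% of all genes were called. None of 19 p53 targets passed, 1 of 24 ATF4 targets rose (VLDLR) and 2 fell (SLC7A5 and DDIT4), 2 of 15 endoplasmic reticulum chaperone genes rose (XBP1 and MANF), and 1 of 31 proteasome genes rose (PSMB7). Of these 6 genes, DDIT4 kept its call without each library in turn, with log2 fold changes of -0.06 in the low-numbered and -0.99 in the high-numbered set, and the other 5 lost theirs without at least 1 dosed library.

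Inflammatory cytokine and chemokine genes rose at 0.25 and 2.5 µM. Of 21 tested, 4 rose at 0.25 µM (CCL20, IL1A, IL1B and CSF3) and 9 at 2.5 µM, where C3 fell. Among all genes, 0.165% and 1.56% were called higher at these doses. The list's median log2 fold change was 0.35, 0.30 and 0.27 over the 3 doses, although no member passed the test at 0.025 µM. At 2.5 µM it was 0.24 in the low-numbered set, with 8 higher, and 1.57 in the high-numbered set, with 12 higher. CCL20, a chemokine that draws CCR6 cells (chromosome 2, 227813842 to 227817556), read 180, 168, 74.0 and 191 CPM at 2.5 µM. Its controls lay between 52.9 and 89.2 CPM in the low-numbered and between 12.6 and 32.1 CPM in the high-numbered set, so the dosed libraries were above the controls of their own set in all 4 cases. The log2 fold change was 1.70 ± 0.18 (adjusted p = 2.6e-12), after 1.01 ± 0.19 at 0.25 µM (adjusted p = 0.0012) and 0.79 ± 0.19 at 0.025 µM (adjusted p = 0.087).

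The granulocyte growth factor CSF3 read 909, 803, 582 and 1346 CPM at 2.5 µM against 112 to 549 CPM in the controls (1.31 ± 0.19, adjusted p = 1.4e-07), and 670 to 746 CPM at 0.25 µM (0.93 ± 0.19, adjusted p = 0.0034). IL1A rose by 0.83 ± 0.17 at 0.25 µM and by 1.25 ± 0.17 at 2.5 µM (adjusted p = 1.6e-08). The chemokines CXCL3 (1.41 ± 0.23) and CXCL8 (1.28 ± 0.21) and the cytokine IL1B (1.2 ± 0.24) were called at 2.5 µM with all 4 libraries but not without replicate 4. CXCL8 read 139, 117, 68.9 and 310 CPM, so replicate 4 was the highest of the group. IL1B at 0.25 µM lost its call without replicate 2 or 3 or without control 10.

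Some ligands and feedback genes of the EGF receptor, on which MCF10A cells depend for growth, rose at every dose. Of 22 tested, 2 rose at 0.025 µM, 3 at 0.25 µM and 5 at 2.5 µM. Among all 24295 genes, 4 were called higher at 0.025 µM, 0.165% at 0.25 µM and 1.56% at 2.5 µM. AREG, an EGF receptor ligand, had log2 fold changes of 0.55, 0.57 and 0.56 (adjusted p = 0.011, 0.00083 and 6.7e-05). It read 733 to 880 CPM at 0.025 µM and 800 to 849 CPM at 0.25 µM, above all 15 controls (340 to 732 CPM), while replicate 3 at 2.5 µM read 549 CPM and overlapped them. IER3, an early response gene, had 0.57, 0.61 and 0.52, its call at 2.5 µM being lost without replicate 4. The calls of AREG and IER3 at 0.025 µM were lost without replicate 3 or 4. They were also lost within the low-numbered set and with no term for the set. EPGN, another ligand, rose at 2.5 µM (1.05 ± 0.14, adjusted p = 4.1e-08) and did not pass at 0.25 µM (0.38 ± 0.15, adjusted p = 0.39). It was higher at 2.5 than at 0.025 µM by 0.75 ± 0.18 (adjusted p = 0.013). The difference in AREG between 2.5 and 0.025 µM was 0.01 ± 0.13 (adjusted p = 1).

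**Figure D3:**
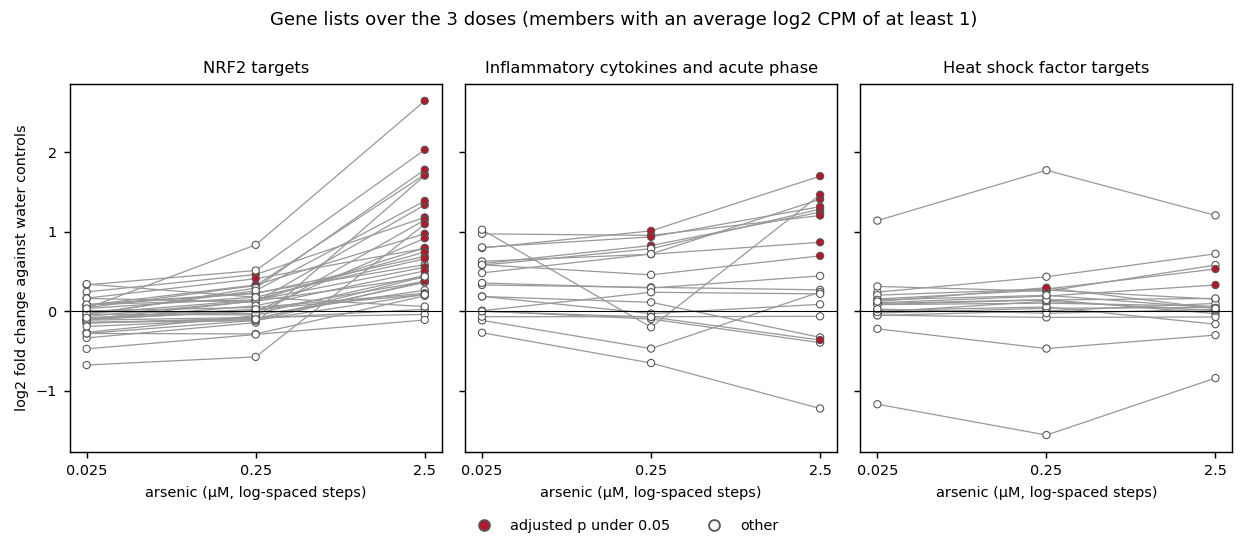
Log2 fold change against the controls at each dose for members of the NRF2, inflammatory and heat shock lists whose average log2 CPM reached 1, filled red where the adjusted p is under 0.05. NRF2 targets went from 0 calls at 0.025 µM to 23 at 2.5 µM, inflammatory genes from 0 to 9 higher, and heat shock genes from 0 to 2.

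Genes of cell contacts and of the epithelial surface fell at 2.5 µM. This group of 26 tested junction genes was also assembled after values were seen. Of these, 12 fell and none rose, with a median of -0.69, where 1.94% of all genes were called lower. In 8 of the 26, all 4 libraries lay below every control of their set, as in 156 of all 24295 genes (0.642%). At 0.25 µM DSP and DSG3 fell, DSP not without replicate 2, and at 0.025 µM DSP alone.

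CDH1, the adhesion protein E-cadherin (chromosome 16, 68737292 to 68835537), read 6.27, 8.05, 2.04 and 10.2 CPM at 2.5 µM, below all 15 controls, which spanned 13.9 to 24.6 CPM (median 20.3) and 19.7 to 53.7 CPM (median 25.5) in the low- and high-numbered sets. Its log2 fold change was -1.67 ± 0.25 (adjusted p = 5.0e-07), with -1.47 and -2.06 within the sets. At 0.25 µM it read 7.53, 12.7, 16.3 and 19.6 CPM (-0.74 ± 0.20, adjusted p = 0.061). CXADR, a tight junction adhesion protein (chromosome 21, 17513043 to 17636262), read 4.16, 1.67, 0 and 1.80 CPM, below every control of the same set (6.13 to 18.5 and 2.84 to 10.9 CPM), and fell by 2.09 on the log2 scale (SE 0.35, adjusted p = 1.1e-05).

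Desmosome genes fell less steeply. DSP, desmoplakin, read 152, 157, 140 and 115 CPM at 2.5 µM against 168 to 258 CPM in all controls (-0.65 ± 0.10, adjusted p = 2.7e-06). DSG3 had -1.28 ± 0.21, JUP -0.74 ± 0.12, the P-cadherin gene CDH3 -0.76 ± 0.11 and PERP -0.58 ± 0.09. TJP1, a tight junction scaffold, had all 4 libraries above the controls of their set and did not pass (0.27 ± 0.10, adjusted p = 0.15).

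The calcium-binding protein gene S100A14 read 147, 179, 244 and 117 CPM at 2.5 µM, below all controls (290 to 639 CPM), and fell by 1.27 on the log2 scale (adjusted p = 1.8e-08) after a fall of 0.95 at 0.25 µM (adjusted p = 0.00083). The 3 subunits of the epithelial sodium channel fell together, SCNN1A by 0.48, SCNN1B by 1.47 and SCNN1G by 1.11, and so did PRSS8, the protease that activates the channel, by 1.61. CDKN1C, a cyclin-dependent kinase inhibitor (chromosome 11, 2883218 to 2885775), read 3.59, 6.82, 1.87 and 2.40 CPM against 9.52 to 41.1 CPM in the controls (-2.49 ± 0.33, adjusted p = 1.1e-08). It had -1.27 ± 0.25 at 0.25 µM, a call lost without replicate 2.

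Of 16 keratins, 5 fell at 2.5 µM and none rose, where 1.94% of all genes were called lower. KRT15 and KRT14, keratins of basal cells, had log2 fold changes of -2.59 ± 0.50 (adjusted p = 0.00014) and -1.28 ± 0.25 (adjusted p = 0.00017), and KRT8 had -0.50 ± 0.08. KRT16 and KRT5 were called with adjusted p of 0.043 and 0.038, and each call was lost without any 1 of replicates 1, 2 and 4 and without control 10 or 11. VIM, the mesenchymal filament vimentin, was 0.21 ± 0.06 higher (adjusted p = 0.015), a call lost without replicate 3 or 4.

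**Figure D4:**
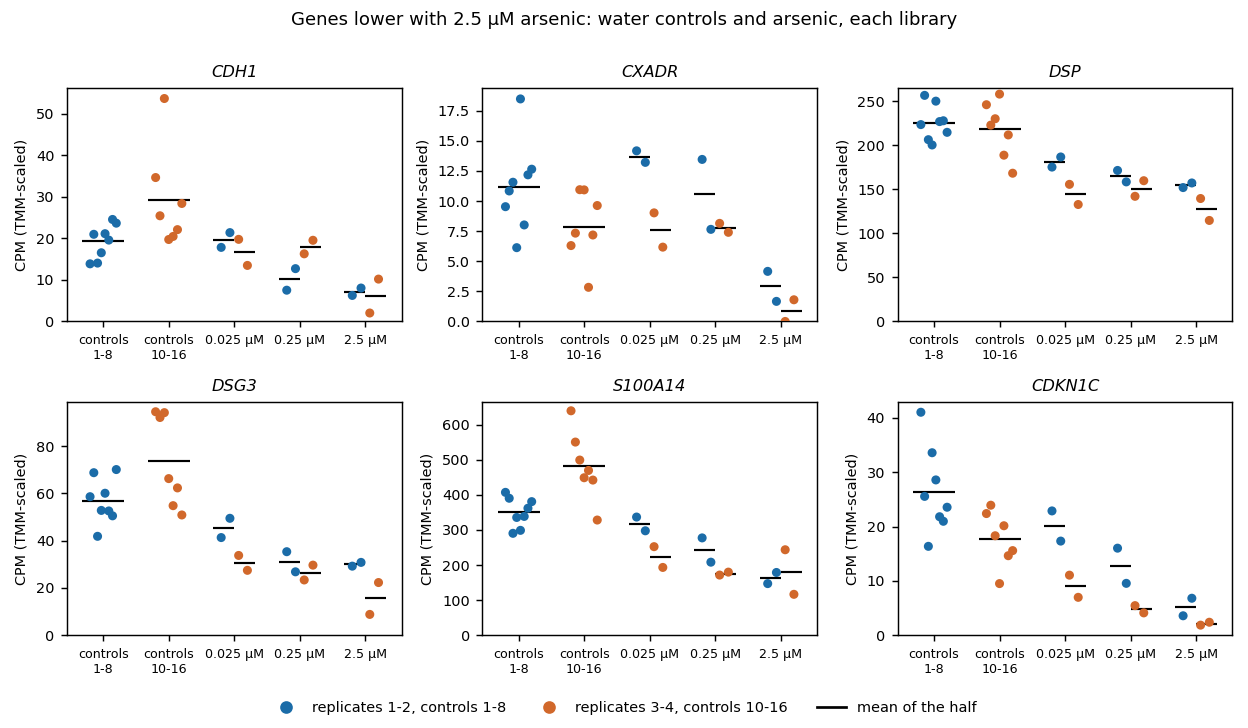
Level of CDH1, CXADR, DSP, DSG3, S100A14 and CDKN1C in CPM in each control and arsenic library, with blue for replicates 1 and 2 and controls 1 to 8, orange for replicates 3 and 4 and controls 10 to 16, and a bar at the mean of each colour. At 2.5 µM all points lie below every control of their colour, for example 115 to 157 CPM of DSP against 168 to 258 CPM.

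Of 25 genes of sterol and fatty acid synthesis, 8 fell and none rose at 2.5 µM, with a median of -0.19. Among all genes, 1.94% were called lower at this dose. The sets differed: the median was -0.07 with 2 lower in the low-numbered set and -0.57 with 14 lower and 1 higher in the high-numbered set, and the interaction was called for 11 of the 25. FASN, fatty acid synthase, was called in both with opposite signs (-0.37 and 0.76). ACLY, which makes cytosolic acetyl-CoA, read 267, 258, 221 and 242 CPM against 290.0 to 397 CPM in all controls (-0.41 ± 0.07, adjusted p = 6.0e-05), and did not pass within the low-numbered set alone (adjusted p = 0.094). FDPS and DHCR7 fell in the high-numbered set (-0.70 and -0.82) more than in the low-numbered one (-0.15 and -0.19), and DHCR7 lost its call without replicate 3. Of 23 matrix and integrin genes, 4 rose, among them the laminin gene LAMB3 (0.69 ± 0.13) and TGFBI, a secreted matrix protein (0.32 ± 0.07), whose calls were lost without replicate 4. The hemidesmosome gene ITGB4 fell (-0.74 ± 0.12, adjusted p = 4.1e-06). Over all genes 1.56% were called higher. The sets differed for the matrix and integrin genes as well. In the low-numbered set 2 were higher and 1 lower, and in the high-numbered set 9 were higher and 3 lower. The interaction was called for 8 with the higher effect in the high-numbered set and for 1 with the lower effect there.

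Cell cycle genes had few calls but lay mostly above the controls when both sets were fitted together. Of 27 DNA replication genes, 26, 27 and 19 had a log2 fold change above 0 at 0.025, 0.25 and 2.5 µM, with medians of 0.21, 0.22 and 0.16. None passed at the lowest dose, and 3 rose at each of 0.25 and 2.5 µM, where 0.165% and 1.56% of all genes were called higher. Of 26 mitosis genes, 24, 24 and 22 were above 0 (medians 0.10, 0.14 and 0.11), and 2 rose, both at 2.5 µM. Each of these calls was lost without at least 1 of the dosed libraries. MCM7 fell at 2.5 µM, also not without replicate 3. The sets differed for the mitosis genes at 2.5 µM. In the low-numbered set all 26 were above 0 (median 0.25), with 4 called higher. In the high-numbered set 12 were above 0 (median -0.12), with 4 called higher and 2 lower (CDK1 and BUB1).

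Alternative fits were examined for 40 of the genes called at 0.25 µM. Those that kept their calls in every one were AREG and IER3, which rose, and S100A14 and DSG3, which fell. S100A14 read 277, 208, 171 and 180 CPM and DSG3 35.3, 26.8, 23.4 and 29.7 CPM, both below every control. F3, the initiator of blood clotting, rose by 0.69 ± 0.12. TRIM29, a basal epithelial gene, fell by 0.52 on the log2 scale, a call lost without replicate 2. The chloride channel regulator gene CLCA2 had -1.08 ± 0.19, with the same loss.

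At the lowest dose 4 genes rose (IER3, F3, AREG and CDCA7) and 6 fell (TSC22D3, MAOA, ALDH3B1, SCNN1G, TRIM29 and DSP). Their log2 fold changes lay between 0.45 and 0.57 for the higher and between -0.73 and -0.45 for the lower genes, with adjusted p of 0.011 to 0.047. TRIM29 lost its call without any 1 of the 4 replicates, although its 4 values were 108, 103, 106 and 100 CPM, all below the lowest of the 15 controls (115 CPM), and it stayed below them at 0.25 µM (86.9 to 107 CPM) and 2.5 µM (75.3 to 83.1 CPM). TSC22D3, a glucocorticoid-responsive gene, read 149 and 138 CPM in replicates 1 and 2, within or next to the low-numbered controls (139 to 233 CPM), and 49.6 and 38.5 CPM in replicates 3 and 4, below the high-numbered ones (73.3 to 185 CPM).

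No call at 0.025 µM was kept under all changes of the libraries. Without replicate 3 or without replicate 4 none of 24295 genes was called, although 1400 and 1230 had an unadjusted p under 0.05. Without replicate 1 there were 4, and without control 2, 10 or 11 there were 2. Without replicate 2, control 3 or control 6 there were 17, 17 and 19. Leaving out control 13 gave 5 and control 15 gave 4. With no term for the set there was none. Under another scaling (RLE) 25.0% of 8 calls were higher, against 40.0% of 10 under TMM.

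The doses were also compared with each other. Between 2.5 and 0.025 µM 107 genes (0.44%) differed, 69 higher and 38 lower at the higher dose, and 37 of them by at least 2-fold. Of the 36 NRF2 targets, 23 were higher and none lower. Leaving out replicate 4 brought the count to 69. Between 0.25 and 0.025 µM no gene passed edgeR's test (0%), 815 had an unadjusted p under 0.05, and DESeq2 called none.

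Set against the mean of the other 4 metals at the same dose, arsenic differed in 145 genes (0.597%) at 2.5 µM, 73 higher and 72 lower. At 0.25 and 0.025 µM the count was 0 (0% and 0%), while 1182 and 1167 genes had an unadjusted p under 0.05 and DESeq2 made 1 call each. With RLE scaling 63.9% of the calls at 2.5 µM were higher, against 50.3%. Leaving out replicate 3 or 4 brought the count to 58 or 60, and leaving out replicate 1 or 2 raised it to 285 or 294.

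Of the NRF2 targets, 11 were higher than in the other metals at 2.5 µM and ALDH3A1 was lower. FTL differed by 0.84 ± 0.08 (adjusted p = 2.0e-14), the 16 libraries of the other metals spanning 1654 to 3585 CPM. SLC7A11 differed by 0.81 ± 0.15 and NQO1 by 0.37 ± 0.07. HMOX1 did not pass (0.56 ± 0.30, adjusted p = 0.55), with 4.10 to 433 CPM among those 16 libraries. CDH1 (-1.19, adjusted p = 0.0052), KRT14 (-1.37, adjusted p = 0.0002) and CDKN1C (-1.95, adjusted p = 0.00022) were lower than in the other metals, and CCL20 higher (1.04, adjusted p = 8.2e-05). Against the shared controls at 2.5 µM, copper alone had 1258 calls, lead 458, cadmium 136 and mercury 6.

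The effect of 2.5 µM was then taken in each set by itself, since the sets share no library. In the low-numbered set 408 of 21703 genes (1.88%) were called and in the high-numbered set 1512 of 20365 (7.42%). Both called 194, of which 182 went in the same direction, 80 higher and 102 lower. The shared calls were 47.5% of those in the low-numbered and 12.8% of those in the high-numbered set. Whether called there or not, 81.0% of the low-numbered calls tested in the other set had the same sign in it. Of the 1512 high-numbered calls, 924 (61.1%) had the same sign in the low-numbered set. The difference between the sets' effects, tested as an interaction, was called for 816 genes (3.36%), and for 254 and 1963 genes without replicate 3 and replicate 4.

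At 0.25 µM the sets called 91 and 194 genes, 35 in both and 34 of these in the same direction. Of the calls tested in the other set, 87.8% of the low-numbered and 85.1% of the high-numbered ones had the same sign there. At 0.025 µM they called 0 and 165, with none in both. Of the 165, 100 (60.6%) had the same sign in the low-numbered set. The low-numbered set had 1169 genes at an unadjusted p under 0.05 at that dose.

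Among the genes described above, NQO1 (0.96 and 1.01), SLC7A11 (1.83 and 2.13), HMOX1 (2.02 and 2.76), SELENOW and CDH1 had effects of the same direction in both sets, with an interaction that did not pass (adjusted p = 0.62 to 1). FTL (1.23 and 2.17, interaction adjusted p = 1.5e-07) and AKR1C1 (1.05 and 2.41, interaction adjusted p = 1.7e-07) rose in both and more in the high-numbered set. In the scatter of both sets' fold changes, these genes lie off the line of equality in the same quadrant.

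**Figure D5:**
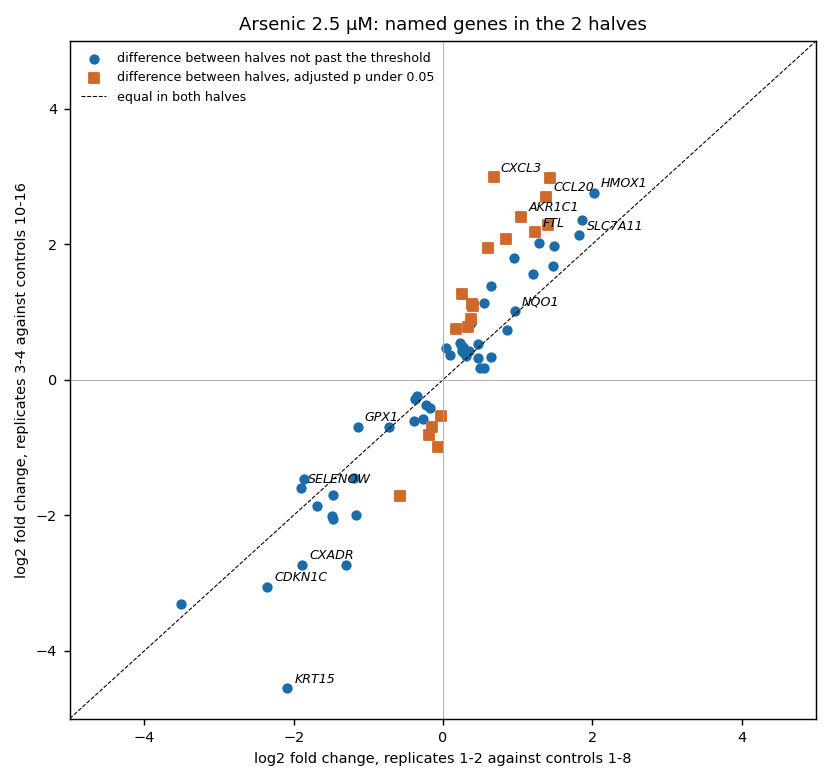
Log2 fold change at 2.5 µM of the genes named by rule in the set of replicates 1 and 2 with controls 1 to 8 (x axis) against that in the set of replicates 3 and 4 with controls 10 to 16 (y axis), with orange squares where the interaction has an adjusted p under 0.05. NQO1, at 0.96 and 1.01, lies close to the line of equality, and AKR1C1, at 1.05 and 2.41, above it.

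Some genes had fold changes of opposite sign at 2.5 and 25 µM, 2 groups that share their controls. AQP3, with log2 fold changes of -1.55 and 1.97, read 3.73 to 9.72 CPM at 2.5 µM and 51.5 to 63.3 CPM at 25 µM. At 25 µM it was above all controls, while at 2.5 µM it overlapped those of the high-numbered set. CDKN1C (-2.49 and 0.95) read 1.87 to 6.82 and 25.2 to 57.3 CPM, the latter overlapping the 15 controls (9.52 to 41.1 CPM). PRSS8 (-1.61 and 2.43) read 1.53 to 12.3 and 83.9 to 159 CPM, against 13.2 to 32.4 CPM in the controls, and overlapped them at neither dose. AKR1C2 went the other way (1.78 and -0.82), with 931 to 1798 CPM at 2.5 µM, above all controls (181 to 770 CPM), and 147 to 359 CPM at 25 µM, which overlapped them. SELENOW was low at both doses, with 32.9 to 54.7 CPM at 25 µM. These genes were picked after their values were seen.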

How the data were processed

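Each library came as a table of symbols with whole-number read counts, which the authors deposited without normalization. Per the submitters' processing notes, STAR, featureCounts, FastQC, MultiQC and the build GRCh38 were used. For versions, annotation, strand setting and gene filter, the sources used here give nothing. Libraries were grouped by the treatment in their labels. All 93 libraries of plate 3153-AT entered 1 fit with a mean per metal and dose and a term for the number set, so that all groups shared an estimate of the spread. edgeR 4.0.16 (R 4.3.3) was used with its filterByExpr function applied by group (at least 10 counts, at least 15 in total), TMM scaling, the quasi-likelihood F-test with the dispersion from the 5% most abundant genes, and Benjamini-Hochberg adjustment over 24295 genes at 0.05. CPM values use the TMM-scaled library size, compare 1 gene across libraries only, and are read counts without molecular identifiers. The code was tested on simulated counts.

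Named genes were, per dose, the 10 highest and 10 lowest fold changes among calls whose average log2 CPM was 3 or more and all 4 libraries on 1 side of the control mean of their set. To these came 16 metal and oxidative stress genes at each dose and at most 4 called members of each of 24 lists, by smallest p. Genes beyond this rule, such as GPX1, SELENON, the sodium channel, the desmosome genes and further NRF2 targets, and 4 added lists were chosen after their values were seen. Some genes that this rule or this choice names are not reported here and were left out of the alternatives and the library checks, though not of the list counts. Members and all lists were chosen with earlier results of these data known. Symbols were matched to RefSeq (GRCh38.p14) for positions and promoters. Alternatives were no term for the set, a replicate block, only controls and arsenic, each set alone, RLE scaling, DESeq2 1.42.0, no filter, a mean of at least 1 CPM, counts thinned to 1.93 M (mega), and each dosed library left out. Leaving out each control was added after seeing the data. No 2 arsenic libraries of a dose held identical values.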

Additional observations from a re-analysis of the deposited data

Results flagged for a closer look

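Over the 3 doses, 153 pairs of a named gene and a dose were checked for a library far from the other 3 of its dose, and 4 had one, all at 2.5 µM, where chance alone gives about 1 in 20. Replicate 3 was the low one for CCL20, at 74.0 CPM (168 to 191 CPM in the others), and CES1, at 8.66 CPM (33.7 to 43.8). Replicate 4 was the high one for LAMB3, at 1487 CPM (678 to 760), and TXNRD1, at 637 CPM (314 to 340). LAMB3 lost its call without replicate 4, and the other 3 genes kept theirs without each library in turn.

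For 30 of 103 named genes, the effect of 2.5 µM arsenic differed between the high-numbered and the low-numbered set by the interaction test (816 of all 24295 genes, or 3.36%, did). Differences are given as the high-numbered minus the low-numbered log2 fold change. Among stress and metabolic genes they were 1.33 for AKR1C1 and for ADM, 0.85 for AKR1C2, 0.91 for FTL, 0.79 for FTH1, 1.51 for FTLP3, 0.50 for SQSTM1, 0.54 for TXN, 0.65 for MT2A, 0.70 for MT1E, 0.54 for ABCC3, 0.41 for HSP90AA1, -0.96 for DDIT4 and -0.53 for LDHA. Among secreted and matrix genes they were 1.31 for CCL20, 1.22 for CSF3, 2.30 for CXCL3, 2.14 for CXCL8, 0.50 for AREG, 1.46 for CCN1 and 0.99 for LAMB3. Among epithelial genes they were -3.01 for CLDN7, -1.17 for EPCAM, -1.25 for DSG3, -0.79 for PERP and -1.37 for SCNN1G. For TSC22D3, MAOA, DHCR7 and FDPS they were -1.43, -1.26, -0.65 and -0.57. LDHA lost its call at 2.5 µM without replicate 3. The sets also differed in the depth of their controls (medians of 20.9 M and 3.17 M counts, M for mega). On counts thinned to 1 depth the interaction was called for 914 of 12993 genes, 647 of which were also called in the main fit. Beyond that fit, the part of depth or of the set in the differences between the sets cannot be told apart.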

How the results depend on the processing

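The smallest dose was the least stable. Called genes at 0.025, 0.25 and 2.5 µM numbered 0, 17 and 477 with no term for the set, and 0, 91 and 408 within the low-numbered and 165, 194 and 1512 within the high-numbered set. DESeq2 gave 28, 166 and 1677, and no filter on low counts 94, 243 and 942. At 0.025 µM the fit on controls and arsenic alone gave 20, and the replicate block 25. No pairing by number was seen among the arsenic doses within a set, where differences correlated from -0.094 to 0.070 over 6 pairs. This does not show that the wells were unpaired. Deviations from the group means, which include the difference between the sets, correlated from 0.011 to 0.469 over 12. The replicate block gave 157 and 865 calls at the higher doses.

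Leaving out 1 dosed library gave 0 to 17 calls at 0.025 µM, 33 (without replicate 2) to 85 at 0.25 µM, and 576 to 917 at 2.5 µM. Leaving out 1 control gave 2 to 19, 83 to 143 and 775 to 873. Between 2.5 and 0.025 µM, 43 genes were called with no term for the set, 64 and 261 within the sets, 227 by DESeq2, 213 with no filter and 69 to 108 without a library. For 0.25 against 0.025 µM every alternative gave 0. Against the other metals at 2.5 µM, the counts were 32 with no term for the set, 34 and 790 within the sets, 483 by DESeq2, 324 with no filter, 234 on thinned counts and 58 to 294 without a library. At 0.025 µM that comparison gave 1 within the low-numbered set, 1 by DESeq2 and 9 with no filter, and at 0.25 µM 1 by DESeq2 and 11 with no filter. Both gave 0 without each library. The interaction gave 1677 by DESeq2, 914 on thinned counts and 254 to 1963 without a library. On thinned counts 55.3% of the calls at 0.25 µM were higher, against 35.4%, and within the high-numbered set 66.0%.

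Of the named genes called at 2.5 µM, 67 of 96 kept their calls without each dosed and each control library, as did 12 of 40 at 0.25 µM and 0 of 10 at 0.025 µM. Signs changed for MT1F within the high-numbered set (0.11), for DNAJB1 there (-0.062), on thinned counts (-0.044) and without a dosed library (-0.00093 without replicate 1 to 0.089 without replicate 2), for SELENON within the high-numbered set (0.049), and for ATF3 on thinned counts (0.0019), without a dosed library (-0.87 without replicate 3 to 0.13 without replicate 2) and without control 8 (0.0050). The cause was not tested.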
